A study of Mus musculus with 135 samples.

Results

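Complement components and receptors were followed here as 9 genes in the brains of male Townes mice: the recognition genes C1qa, C1qb and C1qc, the cascade genes C3 and C4b, the receptor genes C3ar1, C5ar1 and Itgam, and the inhibitor gene Serping1. They are a list of gene symbols, drawn up with earlier results of these data known but with no threshold on a measured value, among the 55416 genes of the count tables, and all 9 passed the filter on low counts in every model. Poly(A) RNA of the cortex and of the hippocampus was sequenced, and read counts per gene were compared between mice. In the Townes model the mouse globin genes are replaced by human ones, in every group used here, and SS mice make sickle hemoglobin while AA mice make normal human hemoglobin. In repeat social defeat (RSD), a male aggressor was placed in the home cage of 3 mice for 2 hours a day on 6 days. Minocycline, an antibiotic used here against neuroinflammation, was given in the drinking water at 90 mg/kg from the day before RSD and throughout it. Mice with RSD and their age-matched controls were 6 months old, and no separate age was given for the minocycline groups. The groups were untreated AA mice (cortex n = 12, hippocampus n = 11), AA + RSD (n = 3), AA + RSD + minocycline (n = 18), AA + minocycline (n = 1), untreated SS mice (n = 8 and n = 7), SS + RSD (n = 6), SS + minocycline (n = 4) and SS + RSD + minocycline (n = 14). Mice were sacrificed after behavioral tests, and each library was counted as 1 mouse.

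The complement system is a chain of blood and tissue proteins that tags cells, debris and synapses for removal. C1q, built from the products of C1qa, C1qb and C1qc, recognizes a target and starts the classical pathway, in which C4 and then C3 are cleaved and bind to the target. Cells read the products through receptors: C3ar1 and C5ar1 bind the small fragments C3a and C5a, and the integrin CD11b, the product of Itgam, together with CD18 forms complement receptor 3, which binds cleaved C3. Serping1 encodes C1 inhibitor, which blocks the C1 proteases. In the brain, microglia are the main source of C1q and carry these receptors, while C3 and C4 are made largely by other cells, astrocytes and choroid plexus among them.

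The C1q genes stood side by side. In GRCm39, on the minus strand, C1qb (ENSMUSG00000036905.9) lay at chr4:136606009-136613511, C1qc (ENSMUSG00000036896.6) at chr4:136616466-136620376 and C1qa (ENSMUSG00000036887.6) at chr4:136623223-136626161. Between them lay 2954 and 2846 bases, and all 3 fell within 20153 bases. The other members were spread over 4 chromosomes. Serping1 (ENSMUSG00000023224.13) lay at chr2:84595705-84620873, C3ar1 (ENSMUSG00000040552.9) at chr6:122823393-122833122 and C5ar1 (ENSMUSG00000049130.7) at chr7:15980668-15993465, each on the minus strand. Itgam (ENSMUSG00000030786.19) lay on the plus strand at chr7:127661808-127717753. C4b (ENSMUSG00000073418.5), at chr17:34947354-34962912, and C3 (ENSMUSG00000024164.16), at chr17:57510964-57535155, lay on the minus strand of one chromosome. C4b has a near-identical copy, C4a, so that reads matching both could not be placed and its level is uncertain. A gene on the other strand covered 8.64% of the exonic bases of C1qc, 6.44% of C3, 6.04% of C4b and 0.977% of C1qb. The strand setting of the counts was not given in the sources used here.

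Because C1qb, C1qc and Itgam had closely related levels across mice (described further on), the 250 bases before their start sites are shown, from RefSeq on build GRCm38.p6. Capitals mark GAGGAA or its reverse complement TTCCTC, core letters of the motif of PU.1, a transcription factor of macrophages and microglia. The windows lie at chr4:136886201-136886450 (minus strand), chr4:136892915-136893164 (minus strand) and chr7:128062390-128062639 (plus strand).
C1qb: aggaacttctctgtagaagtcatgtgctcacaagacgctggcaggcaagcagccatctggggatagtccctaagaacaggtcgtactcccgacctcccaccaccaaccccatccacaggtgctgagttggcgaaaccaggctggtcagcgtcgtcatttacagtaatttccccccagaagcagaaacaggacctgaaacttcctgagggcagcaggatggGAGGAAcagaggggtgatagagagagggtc
C1qc: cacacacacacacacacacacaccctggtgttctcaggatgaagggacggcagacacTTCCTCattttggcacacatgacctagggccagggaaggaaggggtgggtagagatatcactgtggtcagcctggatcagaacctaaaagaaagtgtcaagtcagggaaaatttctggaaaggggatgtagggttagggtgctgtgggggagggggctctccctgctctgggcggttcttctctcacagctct
Itgam: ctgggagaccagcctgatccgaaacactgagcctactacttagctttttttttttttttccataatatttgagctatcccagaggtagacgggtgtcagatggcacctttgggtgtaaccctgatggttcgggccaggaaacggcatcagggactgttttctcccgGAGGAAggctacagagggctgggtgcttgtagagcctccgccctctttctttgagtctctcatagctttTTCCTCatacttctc
C1qb and C1qc each held 1 match and Itgam held 2. The windows of C3, C3ar1 and C5ar1 held 0, so that 3 of the 6 members with a promoter in the table had a match. Of all 32851 promoters of this length, 7639 (23.3%) held these letters on either strand. C1qa, C4b and Serping1 had no entry.

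Several libraries and one feature of the design touched the results and are given first. Cortex libraries had 16295042 to 107713193 reads on genes, and those of the hippocampus had 12869149 to 68731008. The share of reads that fell outside annotated genes ranged from 3.68% to 13.9% in the cortex and from 3.98% to 24.01% in the hippocampus. The mouse numbers on the labels were grouped here into 3 number series of 2 runs each: A (5349 to 5400 and 9615 to 9674), B (5645 to 5900 and 9810 to 9910) and C (7037 to 7121 and 10633 to 10639). The labels do not call these batches. Every mouse with RSD alone, of either genotype, belonged to A, all mice given RSD and minocycline to B or C, and the untreated controls to A or B. RSD mice and RSD + minocycline mice shared no number series, so that treatment and series cannot be told apart between them. A model term for the series links them only through the untreated controls. In A these were 4 AA and 2 SS cortices, and 3 AA and 2 SS hippocampi. In each tissue, 2 libraries under different labels held identical counts and were left out, which left 130 of 134 libraries. In the library labelled 9674, an AA + RSD mouse, the summed level of 6 choroid plexus genes was 5614 CPM (counts per 1000000 reads on genes, scaled between libraries) in the cortex and 16.6 CPM in the hippocampus, against a range of 4.55 to 1143 CPM in the cortex and 26.97 to 4175 CPM in the hippocampus of control mice. Both values lay outside the range of the labelled region, and the tissue labels of these 2 libraries may be exchanged. The summed level of 3 erythroid genes, with medians of 5.46 CPM in AA and 114 CPM in SS cortex, was 110 CPM in the cortex library labelled 5844 and 42.1 CPM in the one labelled 9631 (both AA), 53.8 CPM in 5853 (AA + RSD + minocycline) and 6.78 CPM in 7078 (SS + RSD + minocycline). These erythroid levels went against the labelled genotypes. All 5 mice were kept under their labels, and values that turn on them are also given without them. Microglia were present throughout: none of the 11 microglial marker genes was at 0 in any library. Markers of neutrophils and monocytes were low but mostly detected. Of their 7 genes, Camp was at 0 in 52 of 66 cortex and in 50 of 64 hippocampus libraries. Ccr2 was at 0 in none, and S100a9 in 0 cortex and 6 hippocampus libraries. The sum of the 7 genes had a median of 0.584 CPM in untreated AA and 1.21 CPM in untreated SS cortices.

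Levels between genes were compared per length, as CPM per kilobase of the main transcript. C1qa had the highest median level in both tissues, at 31.4 CPM per kilobase in the cortex and 33.1 in the hippocampus. C1qc followed with 17.99 and 20.5, and C1qb with 13.7 and 14.6. The C1q genes thus led the members, with C4b next at 5.36 in the cortex and 13.3 in the hippocampus and Serping1 at 2.46 and 4.25. Itgam had a median of 1.22 and 1.43 CPM per kilobase. The receptors C3ar1 (0.399 and 0.379) and C5ar1 (0.324 and 0.345) were lower, and their medians lay close together. C3 was the lowest member in the cortex, at 0.0818 CPM per kilobase, and lay near the receptors in the hippocampus, at 0.378. Depth followed this order: a cortex library held a median of 1220 reads on C1qb (range 477 to 4615) but 15 reads on C3 (0 to 105) and 28 on C5ar1 (10 to 76), so that counting error is part of the spread between mice for C3 and C5ar1. C3 had no read in 1 cortex library, SS + minocycline mouse 9888, where 3 counts would be 0.144 CPM.

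**Figure D1:**
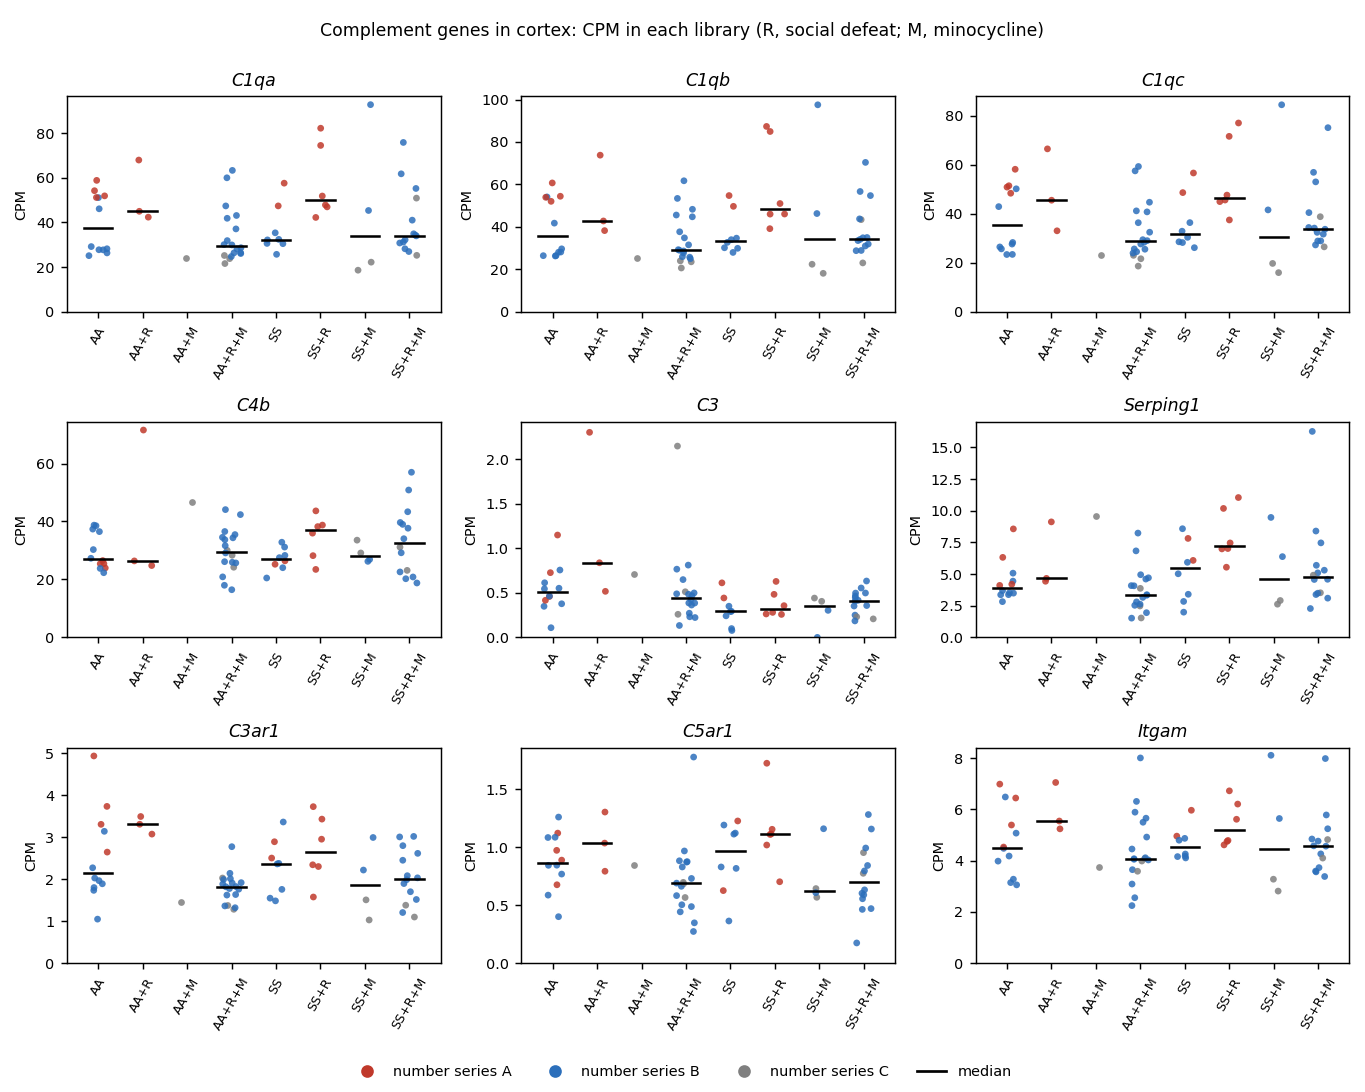
Levels of the 9 genes in the cortex by group, in CPM on linear axes from 0, with a point for each mouse, colored by number series (red A, blue B, grey C), and a bar at the group median (R, social defeat, M, minocycline). C1qb levels of SS and SS + RSD mice overlapped, and all 3 AA + RSD mice lay above all 18 AA + RSD + minocycline mice for C3ar1.

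The smallest adjusted p of the members came from the brain regions. Members were not called more often there than genes in general in the main model (4 of 9, against 47.8% of all genes). In untreated control mice, C3 and C4b, which carry the cascade from C1 to the tagged target, were higher in the hippocampus, as was the inhibitor gene Serping1, while the C1q genes and C5ar1 differed by at most 0.18 on the log2 scale. The level of C4b in 20 control cortices ranged from 20.5 to 38.7 CPM (median 26.9) and in 18 control hippocampi from 60.5 to 98.3 CPM (median 77.1). No control cortex reached the lowest hippocampus, and the share of all genes parted in this way is not given here. C3 ranged from 0.0773 to 1.15 CPM (median 0.430) in the cortex and from 0.654 to 6.48 CPM (median 2.49) in the hippocampus. Serping1 ranged from 1.99 to 8.58 CPM (median 4.15) and from 4.28 to 20.6 CPM (median 8.63). For C3 and Serping1 the ranges overlapped.

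In 18 control mice with both regions, the hippocampus was above the cortex in 18 mice for C3 and C4b, in 17 for Serping1, in 16 for Itgam, in 14 for C1qa and C1qc, in 12 for C1qb, in 10 for C5ar1 and in 2 for C3ar1. By edgeR's quasi-likelihood test with genotype as a term, 4 of the 9 members passed a Benjamini-Hochberg adjusted p of 0.05, where 47.8% of all 17946 genes tested did. The hippocampus exceeded the cortex by 2.52 on the log2 scale for C3 (SE 0.26, adjusted p 7.77e-11), by 1.44 for C4b (SE 0.084, adjusted p 5.84e-18), by 0.93 for Serping1 (SE 0.17, adjusted p 1.42e-05) and by 0.22 for Itgam (SE 0.095, adjusted p 0.0487). The median of all genes differed by 0.02. DESeq2 called 3 members and 48.6% of all genes. With the mouse as a block, edgeR called 8 members, where 61.4% of all genes passed. C1qa (0.17, adjusted p 0.00817), C1qb (0.11, adjusted p 0.0436) and C1qc (0.15, adjusted p 0.0190) were then called higher in the hippocampus. C3ar1 was called lower, with a log2 difference of -0.32 (adjusted p 0.000916). C5ar1 alone was not called, with a log2 difference of 0.03 and a 95% interval from -0.22 to 0.28.

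The regions also differed in the genes of other cell types. In the same control mice, the sum of 5 meningeal fibroblast genes was 15.5 to 45.5 CPM (median 25.7) in the cortex and 25.8 to 112 CPM (median 82.9) in the hippocampus, and that of the choroid plexus genes had a median of 13.9 and 149 CPM. The sum of 5 astrocyte genes had a median of 948 CPM in the cortex and 1359 CPM in the hippocampus, and that of the microglial genes 333 and 377 CPM. The part of these cells in the regional levels of C3, C4b and Serping1 was not tested. In bulk tissue, fewer cells of a type and less RNA per cell cannot be told apart.

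**Figure D2:**
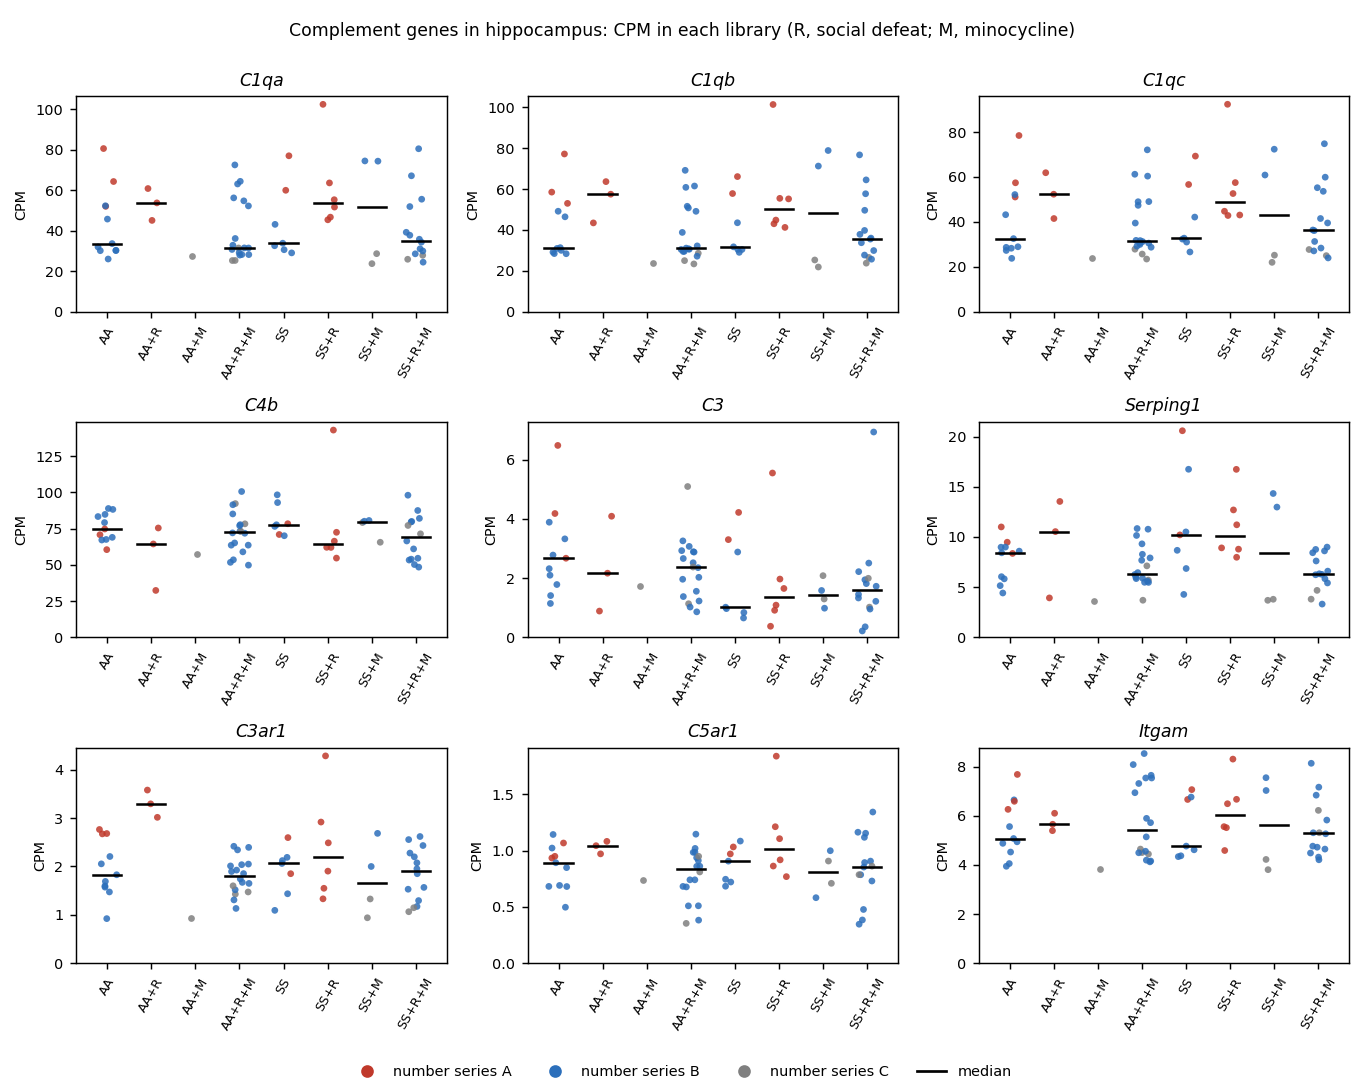
Levels of the 9 genes in the hippocampus by group, in CPM on linear axes from 0, with a point for each mouse, colored by number series (red A, blue B, grey C), and a bar at the group median (R, social defeat, M, minocycline). C3ar1 in all 3 AA + RSD mice lay above every AA and every AA + RSD + minocycline mouse, and SS + RSD mouse 9615 was the highest of its group for C1qa, C1qb, C1qc, C3 and C4b.

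Whether social stress changed complement expression in the sickle brain was addressed by SS + RSD against SS mice. In the cortex, the C1q genes had higher values after RSD, but none passed the adjusted threshold. C1qb was 27.9 to 54.7 CPM in 8 SS mice (median 33.3, mean 36.7 ± 9.91 SD) and 39.1 to 87.3 CPM in 6 SS + RSD mice (median 48.5, mean 59.1 ± 21.3 SD). Each of the 6 values after RSD was above the median of the SS mice and 2 were above every SS mouse, so that the groups overlapped. C1qa had medians of 32.3 and 49.8 CPM and C1qc of 31.6 and 46.6 CPM. In edgeR, 0 of 9 members were called, where 2.57% of all genes were called, and DESeq2 called 0 members. An unadjusted p under 0.05 was found for 3 members and for 5508 of 19906 genes. Of the members C1qb had the smallest p, with a log2 fold change of 0.68 (SE 0.27, 95% interval 0.13 to 1.23, adjusted p 0.109). C1qa had 0.66 (adjusted p 0.118) and C1qc 0.58 (adjusted p 0.154). A model of these groups alone called all 3 C1q genes (adjusted p 0.0223 to 0.0445), where it called 19.2% of all genes. Both SS controls of number series A, the series of the RSD mice, had C1qb at 49.7 and 54.7 CPM. Against those 2 controls alone, the log2 fold change of C1qb was 0.18, that of C1qa 0.14 and that of C1qc 0.04.

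All 9 members were above 0 in that cortex comparison, with a median log2 fold change of 0.38 against 0.08 over all genes. The share of all genes above 0 is not given, and the C1q genes and Itgam varied together across mice (described further on). All 6 SS + RSD mice were of number series A, and 6 of the 8 SS cortices of series B. Serping1 was 0.64 and C4b 0.38, both with overlapping groups: Serping1 ranged from 1.99 to 8.58 CPM in SS and from 5.54 to 11.04 CPM in SS + RSD mice. The microglial marker sum moved with the C1q genes, at 300 to 452 CPM (median 333) in SS and 396 to 535 CPM (median 449) in SS + RSD cortices, with 1 of its 11 genes called higher and 0 lower. Its part in the C1q values was not tested. In the hippocampus, edgeR called 0 members and 0 had an unadjusted p under 0.05, DESeq2 called 0, and 3.11% of all genes were called. The unadjusted p was under 0.05 for 4050 of 20701 genes. C1qa had the smallest p of the members there, at 0.48 (SE 0.30, adjusted p 0.402). C1qb had a median of 31.7 CPM in SS and 50.01 CPM in SS + RSD mice. Against the 2 SS controls of number series A alone, the log2 fold changes of C1qa, C1qb and C1qc in the hippocampus were -0.15, -0.10 and -0.16, opposite to the values over all controls.

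In AA mice, C3ar1, the receptor for C3a, was the member whose values stood furthest apart after RSD, and this was so in the hippocampus. The 3 AA + RSD mice had 3.02, 3.30 and 3.58 CPM, and the 11 AA mice 0.920 to 2.76 CPM (median 1.83). The groups did not overlap, but the share of all genes without overlap between these 3 and 11 mice is not given here. The log2 fold change was 0.78 (SE 0.21, 95% interval 0.34 to 1.21), with an unadjusted p of 0.00091 and an adjusted p of 0.0629 in edgeR. C3ar1 was the only member with an unadjusted p under 0.05, where 3153 of 21563 genes had one. EdgeR thus called 0 members and DESeq2 called 1, C3ar1 (adjusted p 0.0263), where 1.19% of all genes were called in edgeR and 2.06% in DESeq2. Without mouse 9674 the value was 0.79 (adjusted p 0.899), and against the AA controls of number series A alone it was 0.37. In the cortex, C3ar1 was 3.07, 3.31 and 3.49 CPM in AA + RSD mice and 1.05 to 4.94 CPM (median 2.15) in AA mice, which overlapped. There, 0 members were called by edgeR and by DESeq2, where 0.853% of all genes were called. An unadjusted p under 0.05 was found for 1 member and for 3164 of 21927 genes. That member was C3, at 0.517, 0.839 and 2.31 CPM in AA + RSD mice and 0.109 to 1.15 CPM (median 0.505) in AA mice (log2 fold change 1.14, SE 0.52, adjusted p 0.313). The value of 2.31 CPM came from mouse 9674, whose tissue labels are in doubt, and without this mouse the log2 fold change was 0.31 (adjusted p 0.969). For C4b in the cortex, the same mouse had 71.6 CPM and the other AA + RSD mice 24.8 and 26.4 CPM. In its hippocampus library, C4b was 32.4 CPM, against 64.4 and 75.4 CPM in the others. Its cortex value thus lay in the range of the control hippocampi and its hippocampus value in that of the control cortices.

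Minocycline given with RSD was compared with RSD alone and with no treatment. AA + RSD + minocycline mice had lower C3ar1 than AA + RSD mice in both regions, the only member called in any treatment comparison. In the cortex, the 18 mice given minocycline had 1.28 to 2.77 CPM (median 1.82), and in the hippocampus 1.13 to 2.42 CPM (median 1.80), all below the 3 AA + RSD mice listed above. For these groups, too, the share of all genes without overlap is not given. The log2 fold change was -0.85 in the cortex (SE 0.24, adjusted p 0.0395) and -0.87 in the hippocampus (SE 0.20, adjusted p 0.0113). This was 1 of 9 members in each region, where 3.60% of all genes were called in the cortex and 2.67% in the hippocampus, and DESeq2 called the same gene, with 9.42% and 5.15% of all genes. In the cortex, 6 of 9 members and 5325 of 21927 genes had an unadjusted p under 0.05. In the hippocampus, 1 member and 4178 of 21563 genes did. The call was lost without mouse 9674 (-0.92, adjusted p 0.282, and -0.89, adjusted p 0.470) and without mouse 9643 (adjusted p 0.127 and 0.0550). In the cortex it was also lost without mouse 9646. A term for the number series turned the cortex value to 0.02 and gave -0.21 in the hippocampus. It links these groups only through the AA controls, so these values cannot part treatment from series. This comparison shares the AA + RSD mice with the one against AA controls.

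In the hippocampus, the median of C3ar1 was 1.83 CPM in untreated AA mice and 1.80 CPM in AA + RSD + minocycline mice. Over that contrast, edgeR and DESeq2 called 0 members in each region, where 0.0319% of all genes were called in the cortex and 0% in the hippocampus. In the cortex, 1 member and 1404 of 21927 genes had an unadjusted p under 0.05. In the hippocampus, 0 members and 622 of 21563 genes did. C3ar1 had the smallest p in the cortex, with a log2 fold change of -0.48 (adjusted p 0.433).

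In SS mice, the C1q genes were lower on average in SS + RSD + minocycline than in SS + RSD mice, with no member called. C1qb in the cortex was 22.98 to 70.4 CPM (median 34.5, mean 39.3 ± 13.2 SD, n = 14), against 39.1 to 87.3 CPM with RSD alone, and 9 of the 14 mice lay below every SS + RSD mouse. C1qb had the smallest p of the members, at a log2 fold change of -0.58 (SE 0.24, adjusted p 0.119). EdgeR and DESeq2 called 0 members, where 8.85% of all genes were called. The unadjusted p was under 0.05 for 3 members and for 5252 of 19906 genes. The microglial sum was lower too, with medians of 355 CPM against 449 CPM in the cortex and 372 CPM against 485 CPM in the hippocampus, and 2 of its 11 genes were called lower and 0 higher in each region. The lower class of reads outside genes (described further on) held 5 of 14 SS + RSD + minocycline and 5 of 6 SS + RSD cortices, and 4 of 14 and 6 of 6 hippocampi. In the hippocampus, Serping1 had the smallest p. It was 3.31 to 8.99 CPM (median 6.30) in SS + RSD + minocycline mice and 7.98 to 16.7 CPM (median 10.1) in SS + RSD mice, and 10 of the 14 mice lay below every SS + RSD mouse. Its log2 fold change was -0.77 (SE 0.27, adjusted p 0.0764). There, edgeR and DESeq2 called 0 members, where 5.96% of all genes were called. The unadjusted p was under 0.05 for 2 members and for 5539 of 20701 genes. A model of these groups alone called Serping1 (-0.76, adjusted p 0.0305), where it called 7.13% of all genes. Markers of other cells had lower medians beside it: the meningeal fibroblast sum was 32.5 to 90.3 CPM (median 59.1) against 31.3 to 118 CPM (median 73.8), with 0 of 5 genes called, and the sum of 4 endothelial genes was 106 to 206 CPM (median 162) against 202 to 226 CPM (median 209), with 1 called lower. The part of these cells, of microglia and of the reads outside genes in the values was not tested. With the number series as a term, Serping1 turned to 0.08 and C1qb in the cortex to 0.25. This term links these groups only through the SS controls, so the values cannot part treatment from series.

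Compared to untreated SS mice, SS + RSD + minocycline mice differed in 0 of 9 members in each region by edgeR and by DESeq2, with 0 in the cortex and 1 in the hippocampus at an unadjusted p under 0.05, and 0% of all genes were called in each region. Such an unadjusted p was found for 1227 of 19906 genes in the cortex and 759 of 20701 in the hippocampus. Of the members, C4b had the smallest p in the cortex (log2 fold change 0.32, adjusted p 0.835) and Serping1 in the hippocampus (-0.78, adjusted p 0.999). Serping1 in untreated SS hippocampi ran from 4.28 to 20.6 CPM, so that the groups overlapped.

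The 4 SS + minocycline mice, which had no RSD, fell apart by number series in the C1q genes. In the cortex, C1qb was 18.1 and 22.4 CPM in the mice of series C and 46.3 and 97.5 CPM in those of series B. The same mice in the same order had 21.9, 25.3, 71.3 and 78.9 CPM in the hippocampus. Itgam kept that order too, at 2.81, 3.27, 5.64 and 8.11 CPM in the cortex. So did the microglial sum, at 288, 318, 383 and 463 CPM in the cortex and 327, 352, 485 and 529 CPM in the hippocampus. The share of reads outside genes was 10.499%, 8.57%, 9.84% and 3.85% in these cortices and 8.12%, 8.16%, 4.31% and 4.36% in the hippocampi, and its part and that of microglia were not tested. Against SS controls, edgeR and DESeq2 called 0 members and 0 had an unadjusted p under 0.05 in either region, with 0% of all genes called in each. The unadjusted p was under 0.05 for 1406 of 19906 genes in the cortex and 449 of 20701 in the hippocampus. C1qb had the smallest p in the cortex (log2 fold change 0.29, SE 0.31, 95% interval -0.33 to 0.91, adjusted p 0.873), and turned to -0.34 without mouse 9889. Within series B alone, edgeR called C1qa, C1qb and C1qc in the cortex (C1qb 1.16, adjusted p 0.00701), where it called 27.1% of all genes. That model sets 2 mice, 1 of them mouse 9889 with the lowest share of reads outside genes of the 4, against 6 SS cortices that all lay in the upper class of that share. In the hippocampus, Serping1 had the smallest p (-0.35, adjusted p 0.981), with 3.69 and 3.79 CPM in series C and 14.3 and 12.97 CPM in series B.

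**Figure D3:**
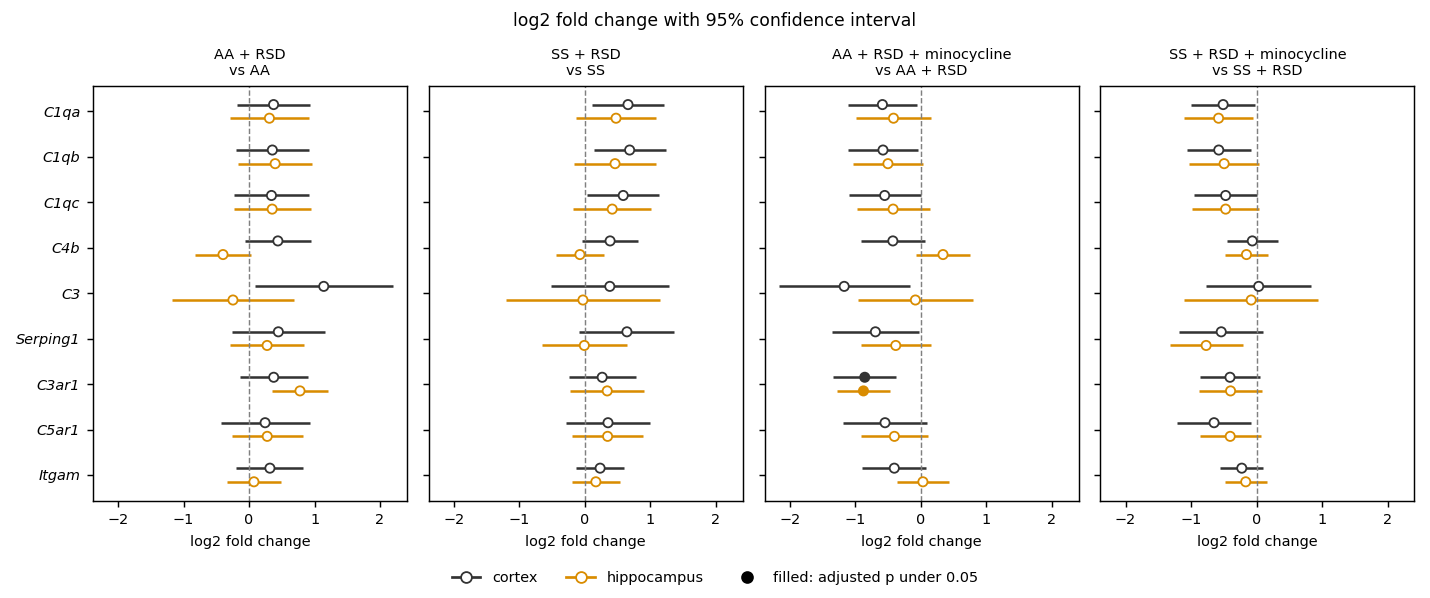
Log2 fold changes of the 9 genes in the 4 comparisons named above the panels, from edgeR, with 95% intervals, in the cortex (dark) and in the hippocampus (orange). Filled points have an adjusted p under 0.05. Most intervals cross 0, and those of C3ar1 for AA + RSD + minocycline against AA + RSD lie below it in both regions.

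Without treatment, none of the 9 members was called different between SS and AA mice by edgeR or DESeq2. In the cortex, the median of C1qb was 33.3 CPM for SS against 35.7 CPM for AA, with a log2 difference of -0.10 and a 95% interval from -0.53 to 0.34. In the hippocampus, C1qb medians were 31.7 and 31.3 CPM, with an interval from -0.49 to 0.48. EdgeR and DESeq2 called 0 members, where 0.214% of all genes were called in the cortex and 0.159% in the hippocampus. An unadjusted p under 0.05 was found for 1501 of 22926 genes in the cortex and 862 of 23215 in the hippocampus. Of the members, 1 had such a p in each region. In the cortex that member was C3, at 0.0773 to 0.613 CPM (median 0.291) in SS mice and 0.109 to 1.15 CPM (median 0.505) in AA mice (log2 difference -0.84, adjusted p 0.745). In the hippocampus it was Serping1, with a median of 10.2 CPM in SS against 8.42 CPM in AA hippocampi (0.54, adjusted p 1.00).

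After RSD, SS mice differed from AA mice in 0 members by edgeR and by DESeq2 in each region, with 1 in the cortex and 0 in the hippocampus at an unadjusted p under 0.05, where 0.493% and 0.780% of all genes were called. Such an unadjusted p was found for 1111 of 22926 genes in the cortex and 2089 of 23215 in the hippocampus. C3 had the smallest p in the cortex, at 0.258 to 0.629 CPM (median 0.319) in SS + RSD mice against 0.517, 0.839 and 2.31 CPM in AA + RSD mice (log2 difference -1.67, adjusted p 0.349). Without mouse 9674, which had the 2.31 CPM, the difference was -0.85 (adjusted p 1.00). C4b had the smallest p in the hippocampus (0.39, adjusted p 0.724), at 0.10 without mouse 9674 and 0.13 without SS + RSD mouse 9615. SS + RSD + minocycline mice differed from AA + RSD + minocycline mice in 0 members by both tools, with 1 in the cortex (Serping1, 0.58, adjusted p 0.350) and 0 in the hippocampus at an unadjusted p under 0.05, where 0.624% and 2.74% of all genes were called. The unadjusted p was under 0.05 for 1893 of 22926 genes in the cortex and 1935 of 23215 in the hippocampus. For the difference in the effect of RSD between genotypes, an interaction term called 0 members by edgeR and by DESeq2, with 0 at an unadjusted p under 0.05 in each region, where 0.236% of all genes were called in the cortex and 0.0474% in the hippocampus. Such an unadjusted p was found for 676 of 22926 genes in the cortex and 1545 of 23215 in the hippocampus. For the effect of RSD with minocycline, 0 members were called by both tools, 0 in the cortex and 1 in the hippocampus (Serping1, -0.68) had an unadjusted p under 0.05, and 0% of all genes were called in each region. The unadjusted p was under 0.05 for 652 of 22926 genes in the cortex and 1000 of 23215 in the hippocampus. The comparisons of SS with AA mice share their samples with those within a genotype.

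Within the untreated controls, where no treatment differed, the C1q genes differed between number series and between classes of reads outside genes (described further on). In AA cortices, C1qb was 52.01 to 60.7 CPM in 4 mice of series A and 26.2 to 54.1 CPM (median 28.1) in 8 mice of series B. Of these 8, the 2 in the lower class, labelled 5844 and 9836, had 54.1 and 41.7 CPM, and the 6 in the upper class 26.2 to 29.6 CPM. In SS cortices it was 49.7 and 54.7 CPM in series A and 27.9 to 34.6 CPM in 6 mice of series B. In hippocampi it had a median of 58.5 CPM (highest 77.2) in 3 AA mice of series A, all above the 28.4 to 49.1 CPM in 8 of series B, and 57.8 and 66.1 CPM in 2 SS mice of series A and 29.03 to 43.5 CPM in 5 of series B. Of those 8 AA hippocampi, the 3 in the lower class had 46.4 (5844), 49.1 (9836) and 28.4 CPM (9838). The share of reads outside genes differed too, with medians in AA cortices of 4.62% in series A and 9.08% in series B, and of 4.94% and 9.79% in SS cortices. SS + RSD mice had a median of 4.18% and AA + RSD mice of 3.69%. C4b did not follow the same order: its median in AA cortices was 25.4 CPM in series A and 33.4 CPM in series B.

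The share of reads outside genes fell into separate classes, with 28 cortex libraries at or under 6.09% and 38 at or above 7.34%, and 28 hippocampus libraries at or under 6.49% and 36 at or above 7.47%. Of the libraries of number series A, 14 of 15 in the cortex and 14 of 14 in the hippocampus were in the lower class, and of those of series C, 1 of 8 and 0 of 8. In the cortex, the lower class had a median C1qb level of 52.7 CPM (range 37.7 to 97.5) and the upper class 28.8 CPM (18.1 to 46.3). In the hippocampus, these were 56.5 CPM (28.4 to 101) and 30.2 CPM (21.9 to 69.2). C4b, in contrast, had medians of 26.3 and 30.7 CPM in the cortex and 65.7 and 77.1 CPM in the hippocampus. With levels taken relative to the mean of each group and number series, C1qb had Pearson r = -0.757 (Spearman rho -0.743) with the share in 65 cortex libraries. In 63 hippocampus libraries it had -0.612 (rho -0.592, permutation p 1e-05 for each of these). C1qa had r of -0.781 and -0.629, Itgam -0.692 and -0.481, and C4b 0.00771 and 0.127. In the hippocampus, rho of C4b was 0.311 (permutation p 0.0198), and its r was 0.378 without the 2 most extreme libraries. C3ar1, C5ar1 and C3 had rho of -0.310, -0.310 and -0.290 there (p 0.0212, 0.0188 and 0.0264). In the cortex, rho of C5ar1 was -0.424 (p 0.00193), and those of C3, C4b, C3ar1 and Serping1 had p of 0.078 to 0.804. Because the libraries form classes, relations to the share were also computed within each class, with levels again taken relative to the mean of each group and number series (36 relations, 9 members in 2 classes and 2 regions). For C1qb, the cortex gave Pearson r = -0.321 (Spearman rho -0.266, permutation p 0.199 and 0.251) in 26 libraries of the lower class and r = 0.357 (rho 0.195, p 0.0867 and 0.343) in 34 of the upper class. The hippocampus gave r = -0.205 (rho -0.0733, p 0.424 and 0.764) in 28 libraries and r = -0.304 (rho -0.347, p 0.0211 and 0.0224) in 35, and the latter was -0.145 without the 2 libraries of most extreme share. Of the 36 relations, 4 had a p under 0.05 for r and 3 for rho. In the upper class of the hippocampus these were C1qb, C1qa (r = -0.337, rho -0.443, p 0.0123 and 0.00199) and C1qc (r = -0.352, rho -0.373, p 0.0143 and 0.0138), with r of -0.210 and -0.197 for C1qa and C1qc without the 2 extreme libraries. In the upper class of the cortex it was C3ar1, with the opposite sign (r = 0.463, rho 0.363, p 0.00858 and 0.0524, r = 0.290 without the 2 extreme libraries). With that share as a term in the model, the cortex log2 fold changes of C1qa, C1qb and C1qc for SS + RSD against SS mice were 0.14, 0.16 and 0.09. Whether the share stands for the quality of the RNA, the library preparation or something else was not tested.

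**Figure D4:**
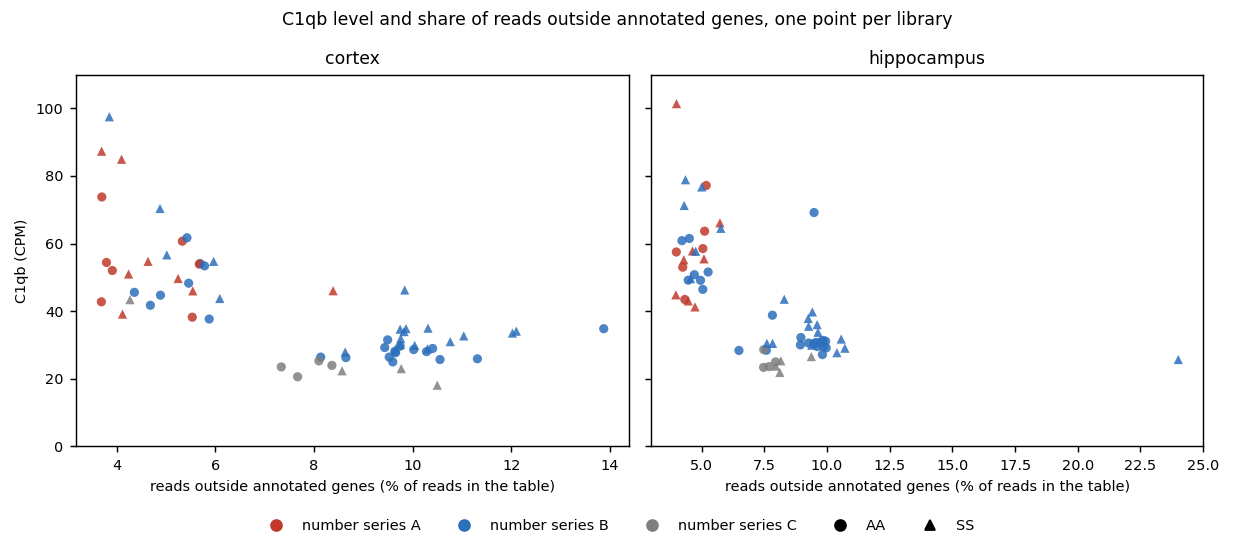
C1qb level in CPM against the share of reads that fell outside annotated genes, in percent, for each library, in the cortex and in the hippocampus, colored by number series (red A, blue B, grey C), with circles for AA and triangles for SS mice. A gap in the share near 7% parts the libraries, and those of series A lie below it, except 1 in the cortex.

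Some members varied together from mouse to mouse, as they did with genes outside the complement system (given further on). After removing group and series means, 19 of 36 pairs of members in the cortex and 24 of 36 in the hippocampus had a permutation p under 0.05. The share over pairs of all genes is not given, so these counts do not set the members apart from other genes. When means were removed within the classes of reads outside genes as well, a check added after seeing the data, 12 and 10 pairs did. C1qa, C1qb and C1qc had r of 0.960 to 0.973 with one another in the cortex and 0.978 to 0.981 in the hippocampus, and 0.880 to 0.938 and 0.961 to 0.967 within the classes. Itgam, made by the same cells in the brain, had r of 0.748 to 0.789 with the C1q genes in the cortex and 0.760 to 0.801 in the hippocampus. Within the classes these were 0.415 to 0.519 and 0.583 to 0.643, and among the 34 cortex libraries of the upper class alone 0.0458 to 0.255 (p 0.156 to 0.807). C3 and C4b had r = 0.479 (p 2e-05) in the cortex and 0.527 (p 0.00048) in the hippocampus, and 0.558 and 0.674 within the classes (p 2e-05 and 1e-05), where the C1q genes had r of 0.0696 to 0.128 with C4b. With group and series means removed, C3 had r of 0.305 to 0.337 with the C1q genes in the hippocampus (p 0.0202 to 0.04). In the cortex these were 0.0864 to 0.114 (p 0.483 to 0.59). Serping1 had r = 0.485 with C4b in the hippocampus (p 0.00076) and 0.250 in the cortex (p 0.092), and 0.598 and 0.343 within the classes (p 2e-05 and 0.0254). The receptors C3ar1 and C5ar1 had r = -0.276 in the hippocampus (rho -0.221, p 0.0496 and 0.119), 1 of 36 pairs there. This r was -0.202 without the 2 most extreme libraries and -0.259 (p 0.072) without the 5 doubted mice. Within the classes it was -0.473 (rho -0.465, p 0.00087 and 0.00131, r = -0.398 without the 2 most extreme libraries). In the cortex their r was 0.0305 (p 0.827), and -0.179 within the classes (p 0.232). Without the 5 doubted mice, 18 and 25 pairs had a p under 0.05 when group and series means were removed.

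**Figure D5:**
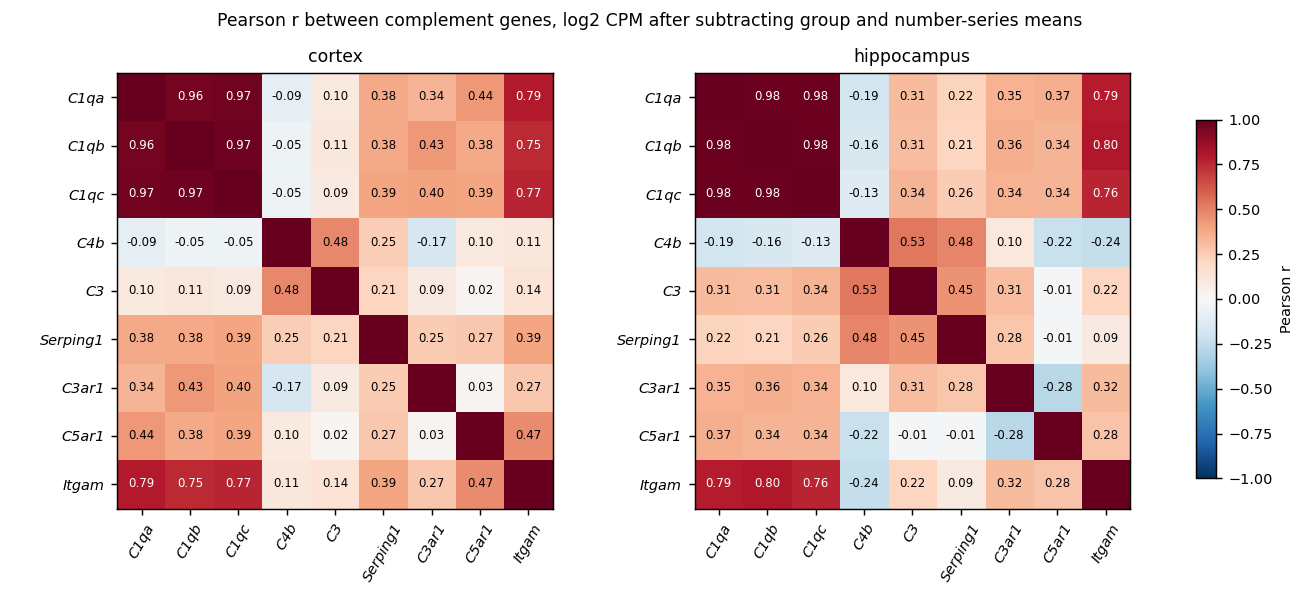
Pearson correlation of each pair of the 9 genes across libraries, in the cortex and in the hippocampus, after removing the mean of each group and number series, with the color scale from -1 to 1. C1qa, C1qb, C1qc and Itgam form a block of high r in both regions. C3 and C4b are related to each other in both. In the hippocampus, C3 also has r of 0.305 to 0.337 with the C1q genes, and Serping1 has 0.453 with C3 and 0.485 with C4b.

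Whether a mouse with a high level in one region also had it in the other was asked over 63 mice with both. C3ar1 and C5ar1 were related between regions over all mice and among mice of the upper class of reads outside genes, but in the lower class r had a p under 0.05 for 0 of 9 members. For C3ar1, r between the cortex and the hippocampus was 0.630 (permutation p 1e-05), and 0.570 (rho 0.546, p 0.00053 and 0.00021) over 56 mice with means removed within the classes of reads outside genes, or 0.457 without the 2 most extreme mice. For C5ar1 it was 0.551 (p 3e-05), and 0.425 (rho 0.359, p 0.0035 and 0.0121) within the classes. Taken singly, the 32 mice of the upper class gave r = 0.622 for C3ar1 (p 0.00111) and 0.482 for C5ar1 (p 0.00557), and the 24 of the lower class 0.475 (p 0.192, and 0.166 without the 2 most extreme mice) and 0.247 (p 0.346). Itgam had 0.709 (p 1e-05), and 0.336 (p 0.0382) within the classes. The C1q genes lost the relation: C1qb had r = 0.710, C1qa 0.684 and C1qc 0.678 (p 1e-05 each) across the classes, but 0.300, 0.133 and 0.158 within them (p 0.221, 0.57 and 0.461). C4b had r = 0.0398 (p 0.83), Serping1 0.0402 (p 0.785) and C3 -0.0422 (p 0.754). These were 9 relations. Over 13127 genes the median r was 0.333, with 5% of genes below -0.127 and 5% above 0.776, and within the classes these were 0.137, -0.231 and 0.507. Across the classes, r of C3ar1 lay at percentile 84.2 of these genes, of C5ar1 at 75.3 and of C1qb, the highest member, at 91.4. C3, C4b and Serping1 lay at percentiles 9.55 to 16.9. Without the 5 doubted mice (57 mice), C1qb had 0.745 and C4b 0.223, and 6 of 9 members again had a p under 0.05 across the classes. The share of all genes with such a p is not given, so this count does not set the members apart from other genes.

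The genes whose levels most resembled each member, by the mean of r in 65 cortex and 63 hippocampus libraries, are given as a description that does not take out the classes of reads outside genes. For C1qa they were C1qc (0.973), C1qb (0.970) and Gabarap (0.933), and beyond the other C1q genes C1qb and C1qc had Tyrobp (0.945 and 0.933), an adaptor of microglial receptors. Itgam had Tuba1a (0.808), Mrfap1 (0.807) and Ywhae (0.803). Serping1 had Bgn (0.855), Gjb2 (0.838) and Aldh1a2 (0.823), genes known from meningeal cells. C3 had Rsph1 (0.583), Foxj1 (0.583), both genes of ciliated cells, and Tsku (0.579). C4b had Plxnb2 (0.631), Notch2 (0.621) and Slit1 (0.610). The receptor C3ar1 had Plek (0.641), Rps3a1 (0.608) and Klhl9 (0.608), and C5ar1 had Vsir (0.604), Selplg (0.603) and Aplp1 (0.589).

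Of 44 other genes of the complement system, 30 to 34 could be tested in a comparison. Between the regions of control mice, 12 of 30 were called, 7 higher and 5 lower in the hippocampus, where 47.8% of all genes were called. The 3 of smallest p were lower there: Masp1 (log2 difference -0.60), a protease of the lectin pathway, C1ra (-1.13), a protease of the C1 complex, and C7 (-1.60), a part of the membrane attack complex. In SS + RSD against SS cortices, edgeR called 3 of 32, where it called 2.57% of all genes, and DESeq2 called 5, where it called 10.53%. The 1 that edgeR called higher was Itgb2 (0.60, SE 0.17, adjusted p 0.0475), which encodes CD18, the partner of the Itgam product. The 2 lower were the regulator gene Cd46 (-1.31, adjusted p 0.0425) and Cfp (-1.34, adjusted p 0.0472), which encodes properdin, the stabilizer of the alternative pathway convertase. In SS + RSD + minocycline against SS + RSD cortices, 4 of 32 were called higher and 2 lower, where 8.85% of all genes were called, and DESeq2 called 8, where it called 13.6%. Those of smallest p were the same genes with the opposite sign, Cd46 (1.33, adjusted p 0.0125), Cfp (1.43, adjusted p 0.0126) and Itgb2 (-0.54, adjusted p 0.0220), and both comparisons share the SS + RSD mice. Against the SS controls of number series A alone, the cortex values of SS + RSD mice were 0.01 for Cd46, -0.17 for Cfp and 0.26 for Itgb2, none of them called. With the number series as a term, those of SS + RSD + minocycline against SS + RSD mice were -0.34 (SE 0.49), -0.15 (SE 0.52) and -0.01 (SE 0.24).

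In the hippocampus, the comparison of SS + RSD with SS mice called 3 of 33 of these other genes, all lower: C4a (-1.82, adjusted p 0.0430), the near-identical copy of C4b, the protease gene C1s2 (-1.52, adjusted p 0.0439) and Cd46 (-1.54, adjusted p 0.0466). This stood beside 3.11% of all genes in edgeR, and DESeq2 called 4 of these genes and 7.29% of all genes. With minocycline, SS + RSD mice had 3 of 33 higher than with RSD alone, Cd46 (1.498, adjusted p 0.0318), C1s2 (1.26, adjusted p 0.0393) and Masp2 (2.23, adjusted p 0.0445), where 5.96% of all genes were called. DESeq2 called 10 of 33 there, and 11.1% of all genes. Against the SS controls of number series A alone, C4a was -0.45 and Cd46 -0.23 in SS + RSD hippocampi, and neither was called. With the number series as a term, SS + RSD + minocycline against SS + RSD mice gave -0.15 (SE 0.67) for Cd46, -0.38 (SE 0.58) for C1s2 and 1.62 (SE 1.15) for Masp2, with none called. Vtn, which encodes vitronectin, an inhibitor of the membrane attack complex, was higher in SS than in AA hippocampi (0.65, adjusted p 0.00552) and in the cortex of SS + RSD + minocycline compared to AA + RSD + minocycline mice (0.41, adjusted p 0.0233). EdgeR called 0 of these genes in each of the other comparisons of treatment or genotype. From 0 to 11 had an unadjusted p under 0.05 there, where 449 to 5325 of all genes did. DESeq2 called 0 in those comparisons as well, except 6 of 34 in the cortex of AA + RSD + minocycline against AA + RSD mice, where it called 9.42% of all genes.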

How the data were processed

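Poly(A) RNA of the cortex and hippocampus of male Townes mice was sequenced with a directional, single-end protocol. The authors aligned reads to GRCm39 with STAR and deposited unnormalized read counts per GENCODE gene, 1 table per tissue. The STAR version and the annotation release are not given in the sources used here. Of 134 libraries with a known group, 130 were used. Libraries with identical counts, a library whose labels name different tissues and 3 columns that matched no library with a known group were left out. The 4 summary lines of each table (unmapped reads, a median of 12.4% and 13.3%, and others) stayed out of library sizes.

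Group comparisons used edgeR 4.0.16 (R 4.3.3): filterByExpr by group (minimum count 10, minimum total 15), TMM scaling, and the quasi-likelihood test with Benjamini-Hochberg adjustment over all genes tested (threshold 0.05). Comparisons within a genotype used all groups of that genotype, and those between genotypes used all groups. In the comparison of regions, most mice gave both tissues, so that the mouse number pairs the same animal. It was fitted with genotype as a term and, as an alternative, with the mouse as a block. CPM were scaled by TMM, and log2 CPM used a prior count of 2. Correlations used log2 CPM centred within group and number series, with 100000 permutations within these, and again within classes of the share of reads outside genes (under or over 7%). Alternatives were RLE size factors, DESeq2 1.42.0, no filter, only the groups compared, a term for the number series or for reads outside genes, a single number series (A or B), each mouse of the small groups left out in turn, and leaving out 5 doubted mice. Within a tissue, libraries are separate mice by their labels, and p-values measure the spread between them. RSD was given cage by cage and cage was not a term, so that mice sharing a cage were treated as independent. The comparison of regions without the block treated both libraries of 18 control mice as independent.

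All 9 members are named in every group, with statistics for members called or, where none was, for the member of smallest p. For each, the 3 genes nearest by r are named, and of the other complement genes at most 3 called per comparison. Camp, Ccr2 and S100a9 were named after their values were seen. The members, lists and doubted libraries were chosen with earlier results of these data known, and the relation to reads outside genes, the classes of that share and the within-series values of single other complement genes were added after seeing the data. Gene positions came from a GENCODE annotation of GRCm39 and promoters from RefSeq. The procedure was tested on simulated data.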

Additional observations from a re-analysis of the deposited data

Results flagged for a closer look

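Of 54 tests for a single mouse far from the rest of its group, 8 found one, and chance gives about 1 in 20. For 5 of these, the mouse was SS + RSD mouse 9615 in the hippocampus. Its levels were 102 CPM for C1qa (the others 45.4 to 63.6 CPM), 101 CPM for C1qb (41.2 to 55.5 CPM), 92.3 CPM for C1qc (42.8 to 57.5 CPM), 5.55 CPM for C3 (0.375 to 1.97 CPM) and 143 CPM for C4b (54.6 to 72.4 CPM). In the same library, the summed choroid plexus genes were at 9848 CPM, against 36.9 to 3060 CPM in the others, and the microglial genes at 639 CPM, against 441 to 497 CPM. Their part in its complement levels was not tested.

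Itgam was 5.97 CPM in the cortex of SS mouse 5353 and 4.10 to 4.95 CPM in the other SS mice. C5ar1 was 1.16 CPM in the cortex of SS + minocycline mouse 9888 and 0.567 to 0.643 CPM in the others. C4b was 65.6 CPM in the hippocampus of SS + minocycline mouse 7108 and 79.2 to 80.6 CPM in the others. The single AA + minocycline mouse, in no comparison, had 46.7 CPM of C4b and 9.57 CPM of Serping1 in the cortex, each above all 12 AA controls, whose highest values were 38.7 and 8.57 CPM. Its meningeal fibroblast sum in the same library was 70.7 CPM, against 18.2 to 45.4 CPM in those controls, and its part in these levels was not tested.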

How the results depend on the processing

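Of 273 alternative values for 27 counts of members, 254 stayed within 1.5 times the count reported. Most of these counts were 0 in the main model, and a count of 0 that stayed 0 is among the 254. Of 358 for single members, 319 kept their direction and their side of the threshold, 15 turned sign, 18 no longer passed it and 6 newly passed it. With the mouse as a replicate block, 8 members differed between regions, against 4. In the cortex, the count of members called for AA + RSD + minocycline against AA + RSD mice fell from 1 to 0 with no filter (C3ar1 adjusted p 0.0712). It also fell to 0 with the number series as a term, which turned the sign of C3ar1 (log2 fold change 0.0229). The count was 0 with reads outside genes as a term (log2 fold change -0.68) and without the 5 doubted mice (log2 fold change -0.90) as well. It was 0 without each of AA + RSD mice 9643, 9646 and 9674 (range 0 to 0). In the hippocampus it fell to 0 with the series term, the term for reads outside genes and without the doubted mice, and leaving out each AA + RSD mouse gave 0 to 1. In a model of only the groups compared, it rose from 0 to 3 for SS + RSD against SS cortices (C1qa, C1qb and C1qc) and from 0 to 1 for SS + RSD + minocycline against SS + RSD hippocampi (Serping1). Within number series B it rose from 0 to 3 for SS + minocycline against SS cortices, and with DESeq2 from 0 to 1 for AA + RSD against AA hippocampi. With means removed within classes of reads outside genes, added after seeing the data, 3 of 9 members were related between regions, against 6 (r of Serping1 -0.0180), and 22 of 72 pairs of members with one another, against 43. The shares over all genes and over all pairs of genes are not given. The causes were not tested.

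Besides C3ar1 in the AA cortices above, signs turned with the series term for C1qb in SS + RSD + minocycline against SS + RSD cortices (0.25), Serping1 in the same hippocampi (0.0787) and in SS + minocycline hippocampi (0.21, and 0.49 in series B), and C1qa, C1qb and C1qc in SS + RSD against SS hippocampi (-0.17, -0.12 and -0.18, and -0.15, -0.10 and -0.16 in series A). Leaving out each SS + minocycline mouse gave -0.34 (without 9889) to 0.55 for C1qb in SS + minocycline cortices, leaving out each RSD mouse gave -1.14 to 0.0387 (without 9674) for the interaction of genotype and RSD of C3 in the cortex, and r of C3 between regions was 0.00336 without the doubted mice. Between RSD and RSD + minocycline mice, the series term works only through the untreated controls and cannot part treatment from series. No paired analysis of treatments was possible because groups share no mouse. AA + RSD rests on 3 mice, and C3 in the cortex on a median of 15 reads.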
